A study of Mus musculus with 2 samples.

Results

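The 10 genes described here, Pde1a, Pde1c, Pde2a, Pde3a, Pde3b, Pde4a, Pde4b, Pde4d, Pde5a and Pde8a, encode cyclic nucleotide phosphodiesterases. They were taken by symbol from 55536 annotated mouse genes, in a choice made with earlier results of these data known. The other 14 phosphodiesterase genes of the annotation served as their comparison. The RNA came from whole heart tissue of untreated male B6CASTF1/J mice, an F1 hybrid strain, aged 2 months. There was 1 group of 2 hearts with 1 library each, called replicate 1 and replicate 2. The labels number the males separately under a shared donor entry, and they were read as 2 animals. Each library was made from 300 ng of total RNA with added spike-in RNAs. With no second genotype, treatment, age or sex, levels are given with their spread, and no group test was possible.

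Cyclic AMP and cyclic GMP carry hormone and nerve signals from the cell membrane to kinases and channels, and phosphodiesterases end these signals by hydrolysing the nucleotide. The families differ in substrate: Pde4, Pde7 and Pde8 enzymes act on cyclic AMP, Pde5, Pde6 and Pde9 enzymes on cyclic GMP, and Pde1, Pde2, Pde3, Pde10 and Pde11 enzymes on both. In heart muscle several of them limit the beta-adrenergic rise in cyclic AMP that increases contraction, each within small domains of the cell set by anchoring proteins.

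The libraries held 39177981 and 44544839 expected counts, which are the authors' estimates of reads per gene. Heart muscle markers were high, with Myl2, a myosin light chain, at 7631 and 8510 TPM and Myh6, the adult cardiac myosin heavy chain, at 7294 and 8105 TPM. TPM is the authors' unit of transcript abundance, corrected for length and for library size, so it allows levels of different genes to be compared. The lung marker Sftpc was listed at 0 in both libraries. Over 15170 genes the biological coefficient of variation between the hearts was 6.63%. Blood markers differed: summed erythroid and platelet marker TPM was 7629 in replicate 1 and 2259 in replicate 2.

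The Pde4 genes have several annotated coding starts each, and these starts are shown first because the isoform results below turn on them. Each line gives the first coding bases of a transcript that held 10% or more of its gene's TPM, read 5′ to 3′ from the GENCODE M21 transcripts on the plus strand of mm10, with the start codon in capitals.
Pde4d-207, chr13:109903441-109903500: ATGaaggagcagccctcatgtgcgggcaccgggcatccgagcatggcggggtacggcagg
Pde4d-209, chr13:108860166-108860207: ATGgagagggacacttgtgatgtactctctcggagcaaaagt
Pde4b-203, chr4:102570648-102570707: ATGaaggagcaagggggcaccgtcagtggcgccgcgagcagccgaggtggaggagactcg
Pde4b-207, chr4:102255221-102255280: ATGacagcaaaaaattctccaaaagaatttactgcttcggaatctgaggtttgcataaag
Pde4a-202, chr9:21165928-21165987: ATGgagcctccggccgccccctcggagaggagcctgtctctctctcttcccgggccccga
Pde4a-203, chr9:21184418-21184477: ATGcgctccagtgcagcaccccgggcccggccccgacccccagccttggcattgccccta
The line for Pde4d-209 is shorter because its first coding exon holds 42 coding bases. Pde4d-207 and Pde4b-203, the shorter coding forms of their genes here, began with the same 11 coding bases, although the genes lie on chromosomes 13 and 4. The longer forms Pde4d-209 and Pde4b-207 shared 3 bases, the start codon, and then differed.

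All 10 genes were at 1 TPM or more in both hearts. At that level stood 21.5% of all annotated genes and 49.8% of the 22015 nuclear protein-coding genes. Among the other phosphodiesterase genes 6 of 14 reached it. The 10 genes together made up 130.9 TPM in replicate 1 and 141.7 TPM in replicate 2. This was 77.0% ± 1.29 (SD, n = 2) of the summed TPM of the 21 genes that encode catalytic phosphodiesterase chains. Since the genes were chosen with earlier results known, the counts at 1 TPM and this share describe the chosen set only. The values come from whole tissue, in which fewer cells of a type and less RNA per cell cannot be told apart.

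Pde1c, a calmodulin-activated enzyme that hydrolyses both nucleotides, had the highest level. It stood at 31.1 TPM in replicate 1 and 32.8 TPM in replicate 2 (mean 32.0 ± 1.24 SD, n = 2), above 83.4% of the 10957 nuclear protein-coding genes detected in both hearts. Pde3a, the main cyclic GMP-inhibited enzyme of heart muscle and the target of milrinone, followed at 24.2 and 27.7 TPM. The ranges of these genes did not overlap.

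Pde4a, a cyclic AMP-specific enzyme, reached 21.1 and 23.0 TPM. Pde2a, the enzyme that cyclic GMP binding stimulates, was listed at 20.8 and 21.5 TPM. The ranges of Pde4a and Pde2a overlapped, and they were the only neighbours in the order of the 10 genes in the gene tables whose ranges did. The Pde2a value is uncertain, since the second tables gave it unlike levels in the hearts, as described below.

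Pde4d, the cyclic AMP-specific form known to bind the cardiac ryanodine receptor and beta-arrestins, stood at 15.7 and 15.4 TPM. Pde4b, known to act near the L-type calcium channel of heart muscle, stood at 7.88 and 10.8 TPM. Replicate 2 was the higher for Pde4b, and both of its values lay below both Pde4d values. The median detected coding gene was at 8.73 TPM, between the Pde4b values.

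The remaining genes lay below that median. Pde8a, a cyclic AMP-specific enzyme that rolipram and isobutylmethylxanthine leave active, was at 4.88 and 5.0 TPM. Pde1a, the calmodulin-activated relative of Pde1c, was at 2.51 and 2.37 TPM. Pde5a, the cyclic GMP-specific target of sildenafil, was at 1.54 and 1.67 TPM. Pde3b, the relative of Pde3a best known from fat cells and liver, was lowest at 1.25 and 1.45 TPM, above 2.75% of the detected coding genes.

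**Figure D1:**
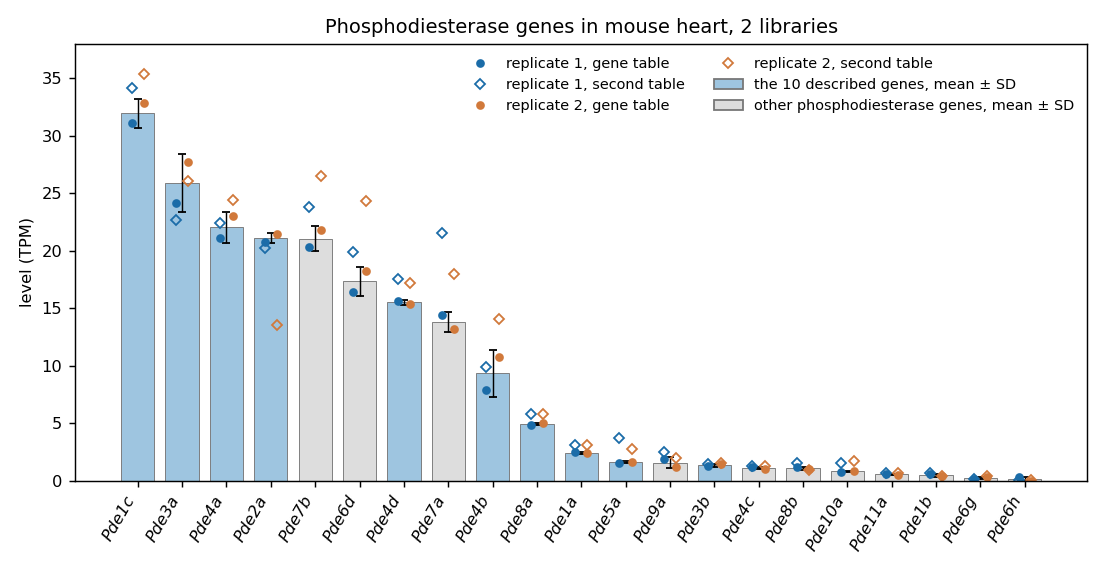
Level in TPM (vertical axis) of the phosphodiesterase genes with a mean of 0.1 TPM or more, ordered by mean. Bars are the mean of the 2 hearts in the gene tables with the SD as error bar, filled points are the hearts, and open diamonds are the sums of the second transcript tables. Pde1c, Pde3a, Pde4a and Pde2a head the order in the gene tables, and the diamonds depart from the points most, in fold, at Pde5a among the 10 genes.

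Close relatives within a family were unequal in level. Pde3a exceeded Pde3b by 19.3-fold in replicate 1 and 19.1-fold in replicate 2 (TPM), and their coding sequences were 64.3% identical over 3134 aligned bases. Pde1c exceeded Pde1a by 12.4-fold and 13.9-fold, with 70.5% identity. Pde8a exceeded Pde8b by 4.10-fold and 4.95-fold. These folds count all transcripts of a gene, noncoding ones included. Over protein-coding transcripts alone the mean was 27.5 TPM for Pde1c and 1.27 TPM for Pde1a. For Pde3a it was 17.2 TPM and for Pde3b 1.305 TPM.
In the Pde4 family the levels were closer together. The ratio of Pde4d to Pde4b was 1.99 in replicate 1 and 1.42 in replicate 2, and that of Pde4d to Pde4a was 0.743 and 0.668. Between the hearts the TPM of Pde4d had an SD of 0.219 and that of Pde4b an SD of 2.06.

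Summed over members of a family, the Pde4 genes led at 48.0 ± 3.08 TPM (SD, n = 2). In the gene tables the Pde1 and Pde7 families were level with each other, at 34.9 ± 0.997 and 34.9 ± 0.184 TPM, and Pde3 followed at 27.3 ± 2.66 TPM. In the second tables Pde7 was above Pde1, at 45.0 ± 0.6002 and 38.4 ± 0.592 TPM. The Pde7 family is not among the 10 genes: Pde7b stood at 20.3 and 21.8 TPM and Pde7a at 14.5 and 13.2 TPM, so Pde7b overlapped in range with Pde2a and Pde4a. Pde6d, which is a carrier of prenylated proteins and not a catalytic chain, was at 16.5 and 18.2 TPM.
Low but detected were Pde9a at 1.91 and 1.22 TPM, Pde8b at 1.19 and 1.01 TPM and Pde4c at 1.18 and 1.02 TPM. The remaining 8 genes of the comparison list did not reach 1 TPM in both hearts.

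By substrate, cyclic AMP-specific genes carried 50.3% ± 0.156 of the catalytic phosphodiesterase TPM and dual-specificity genes 47.9% ± 0.439 (SD, n = 2). Cyclic GMP-specific genes carried 1.81% ± 0.283, of which Pde5a supplied 0.908% of the whole and Pde9a 0.891%. In the second transcript tables the shares were 54.2%, 42.7% and 3.09%. With protein-coding transcripts alone they were 57.9%, 40.2% and 1.84%. In expected counts, which long transcripts raise, the order turned round, with 38.5% for cyclic AMP-specific and 60.1% for dual genes. Pde3a alone held 29.6% of those counts, and its main transcript is 12302 bases long.

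The 2 kinds of transcript table were compared for isoforms. The first was derived from an alignment to the transcriptome and the second directly from the reads. Of 87 annotated transcripts of the 10 genes, 49 were annotated as protein-coding. The most abundant transcript was the same in both kinds of table for 8 of 10 genes, and the exceptions were Pde2a and Pde5a. The most abundant transcript was also the longest annotated one in 8 of 10 genes. Neither count was taken over all genes, so they are not set apart from what other genes show.

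Pde4d spans 1504 kb on the plus strand of chromosome 13 (108449948 to 109953461). Its leading transcript was Pde4d-207, a coding form of 10 exons and 1752 coding bases that starts 1453 kb into the gene. It had 6.77 TPM in replicate 1 and 7.96 TPM in replicate 2, which was 43.2% and 51.7% of the gene's TPM. The second tables gave it 41.1% and 49.6%, so the kinds of table differed by less than the hearts did.
The longer form Pde4d-209, with 2241 coding bases and a start 204 kb into the gene, had 2.84 and 2.67 TPM, or 17.7% ± 0.540 of the gene (SD, n = 2). The second tables gave it 11.6% in replicate 1 and 21.1% in replicate 2. In those tables Pde4d-220, which also has 2241 coding bases, held 12.7% in replicate 1 and 1.6e-05% in replicate 2, so the long coding form was split between these transcripts in replicate 1. Pde4d-211, a noncoding processed transcript at the start of the gene, held 15.2% and 11.05% of TPM.
Pde4d-207 and Pde4d-209 shared their last 1619 coding bases, which include the catalytic part, and differed in their first 133 and 622 coding bases. Of the 4207 bases of Pde4d-207, 2073 lay in no other transcript of the gene: 86 were coding and 1987 followed the coding sequence. Pde4d-209 had 0 bases of its own. Most of the bases that set Pde4d-207 apart thus lay in a longer annotated 3′ end, and the part this end played in its share was not tested.

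Pde4b spans 520 kb on the plus strand of chromosome 4 (102087543 to 102607259). Here the longer coding form led: Pde4b-207, with 2163 coding bases and a start 167 kb into the gene, had 4.74 and 6.87 TPM, or 61.8% ± 2.50 of the gene (SD, n = 2). The second tables gave it 48.3% ± 0.818. The shorter form Pde4b-203, with 1692 coding bases and a start 483 kb into the gene, had 1.30 and 2.42 TPM, or 16.5% and 22.4% of the gene.
Both forms were higher in replicate 2. The second tables placed Pde4b-203 at 16.4% and 22.3%, close to the first. It had 671 bases of its own, 553 before and 118 inside the coding sequence, all at its start. Pde4b-207 had 1398 bases of its own, all after the coding sequence. Pde4b-201, a still shorter coding form, was at 1.25% in the first tables and 10.1% in the second.
So the shorter form led in Pde4d and the longer form in Pde4b, in both hearts and both kinds of table. In each gene the leading form also had bases of its own after the coding sequence, 1987 in Pde4d-207 and 1398 in Pde4b-207. Pde4d-209 and Pde4b-203 had 0 there, and the part of these annotated 3′ ends in the order was not tested.

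Pde4a spans 47.5 kb on the plus strand of chromosome 9 (21165714 to 21213248). Its leading transcripts have annotated starts 18.4 kb apart and were listed at similar TPM. Pde4a-202, with 2532 coding bases, had 11.2 and 13.0 TPM, or 54.7% ± 2.41. Pde4a-203, with 2361 coding bases, had 9.33 and 9.57 TPM, or 42.9% ± 1.82 (SD, n = 2). The second tables gave 57.5% and 39.3%, and Pde4a-202 was higher in both hearts in each kind of table. The forms share their last 2228 coding bases, and Pde4a-203 had 0 bases of its own. Pde4a-202 had 2140, of which 1621 followed the coding sequence, and the part of this 3′ end in the split was not tested. In expected counts, which are not divided by length, Pde4a-202 held 65.8% and Pde4a-203 32.4%. The use of each start was not measured apart from this split.

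**Figure D2:**
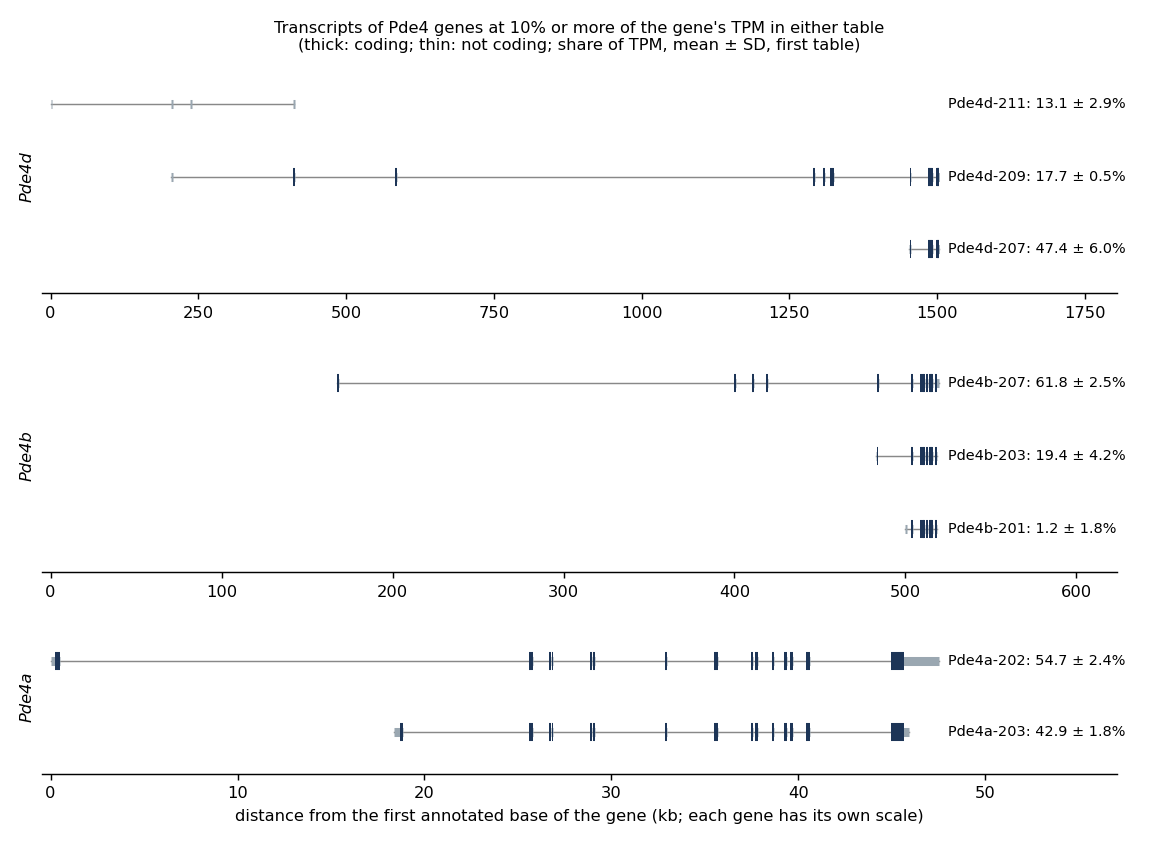
Exon models of the Pde4d, Pde4b and Pde4a transcripts that held 10% or more of their gene's TPM in either kind of table. The horizontal axis is the distance in kb from the first annotated base of the gene (a separate scale for each gene), thick blocks are coding and thin blocks noncoding exon parts (short exons are widened to remain visible), and the share of TPM is the mean ± SD of the 2 hearts in the first tables. Pde4d-207 starts near the far end of its gene, whereas Pde4b-207 starts in the first part of its own.

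A window of 250 bases at each of these Pde4a starts is shown, since their transcripts were listed at similar TPM. The first ends just before the annotated start of Pde4a-202. The other ends just before position 21184101, the start of the retained-intron transcript Pde4a-205, while Pde4a-203 starts at 21184103. They are from the RefSeq promoter table of GRCm38.p6, plus strand, and read 5′ to 3′. The cyclic AMP response element is TGACGTCA, and capitals mark its core letters CGTCA, searched for also as their reverse complement, which reads TGACG.
Pde4a-202, chr9:21165464-21165713: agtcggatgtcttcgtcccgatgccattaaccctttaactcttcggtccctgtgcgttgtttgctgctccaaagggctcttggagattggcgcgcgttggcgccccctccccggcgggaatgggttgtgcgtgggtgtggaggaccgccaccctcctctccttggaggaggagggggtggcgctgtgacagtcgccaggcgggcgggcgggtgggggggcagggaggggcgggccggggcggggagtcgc
Pde4a-203, chr9:21183851-21184100: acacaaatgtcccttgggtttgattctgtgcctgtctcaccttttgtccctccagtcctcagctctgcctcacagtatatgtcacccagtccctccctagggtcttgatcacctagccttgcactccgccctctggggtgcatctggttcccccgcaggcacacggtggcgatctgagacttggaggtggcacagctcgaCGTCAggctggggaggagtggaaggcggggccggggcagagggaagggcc
The window before Pde4a-202 held 22 CG pairs and 0 cores, and the window before Pde4a-203 held 8 CG pairs and 1 core. The table held 22 promoter windows, each with a further 50 bases after the start, for 8 of the 10 genes. The whole element TGACGTCA was in 0 of these 22 and in 1.79% of all 32851 windows. The core, counted on both strands and also where it lies inside a whole element, was in 5 of 22 windows (22.7%) and in 20.8% of all. These are letter matches and not binding sites.

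Pde3a and Pde3b each had a single coding transcript. Pde3a-201 held 66.3% ± 2.73 of the Pde3a TPM (SD, n = 2), at 16.5 and 17.8 TPM, and the retained-intron transcript Pde3a-202 held the rest, at 7.67 and 9.87 TPM. In expected counts, which are not divided by length, the same transcripts held 93.3% and 6.69%. Pde3a-202 is 1819 bases long. The second tables gave Pde3a-202 18.8% and 22.7% of TPM. Pde3b-201 held 96.3% ± 0.643 of the Pde3b TPM.

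Pde1c divided its TPM over several coding transcripts. Pde1c-205, of 8766 bases, held 31.7% ± 2.61, Pde1c-207 19.8% ± 0.447 and Pde1c-203 15.7% ± 0.894 (SD, n = 2). The retained-intron transcript Pde1c-214 held 11.7% in the first tables and 4.13% in the second, while the coding transcript Pde1c-206 held 1.26% and 14.6%. Protein-coding transcripts together held 85.9% and 94.1% of Pde1c.
In Pde1a the leading transcript was Pde1a-209, a processed transcript of 869 bases with no coding sequence, at 43.8% ± 1.70. The second tables gave it 48.9% ± 0.889. In expected counts it held 17.7%, and the coding transcript Pde1a-206, of 4258 bases, led with 50.1%. By TPM the coding transcripts Pde1a-206, Pde1a-203 and Pde1a-201 held 23.1%, 19.1% and 9.76% in the first tables. Their shares in the second tables were 20.7%, 0.0324% and 23.5%, so the leading coding form differed between the kinds of table. In the first tables Pde1a-201 was at 0.49 TPM in replicate 1 and listed at 0 in replicate 2, and the gene had 141 and 168 expected counts, so these splits rest on few reads.

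Pde2a shared sequence with another annotated gene. Of its 6187 distinct 31-base words, 63.8% also occurred in other genes, and 63.5% in Gm45837. This coding gene is annotated on the same strand, and its span (chromosome 7, 101410886 to 101512819) overlaps that of Pde2a. For each of the other 9 genes at most 2.03% of words were shared. In the second tables Pde2a was at 20.3 TPM in replicate 1 and 13.6 TPM in replicate 2, and Gm45837 at 2.74 and 8.64 TPM.
The sum of both genes was 23.0 and 22.2 TPM in the second tables and 21.7 and 21.5 TPM in the gene tables. Between the hearts, within the second tables, the sum moved by less than either gene did. The part of the shared sequence in these values was not tested. Within Pde2a, the nonsense-mediated decay transcript Pde2a-209 held 47.1% and 62.0% in the first tables. In the second it held 49.7% in replicate 1 and 16.7% in replicate 2, where the coding transcript Pde2a-204 took 57.0%. The processed transcripts Pde2a-210 (12.1% in the first tables) and Pde2a-207 (12.2% in the second) were each listed at 0 in the other kind.

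Pde5a-204 and Pde5a-201, which share their last 2475 coding bases, held 39.7% ± 14.6 and 35.5% ± 0.610 of Pde5a (SD, n = 2) in the first tables. The short processed transcript Pde5a-203, of 418 bases, held 23.3% there and 54.2% in the second tables, but only 1.43% of the expected counts. Pde5a was at 3.68 and 2.75 TPM in the second tables, and its coding transcripts alone were at 1.54 and 1.31 TPM. Pde8a-201, the only coding transcript of Pde8a, held 95.5% ± 4.66 of that gene.

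Counted over protein-coding transcripts alone, the order of the genes changed. Pde1c stayed first at 27.5 ± 0.962 TPM, Pde4a came next at 21.6 ± 1.46 and Pde3a after it at 17.2 ± 0.962 (SD, n = 2). Pde2a moved from the fourth place to the sixth, at 5.60 TPM in replicate 1 and 4.29 TPM in replicate 2, below Pde4d at 11.7 ± 0.445 and Pde4b at 8.73 ± 2.14. The second tables put these 6 genes in the same order by mean coding TPM. In replicate 2 alone they put Pde4b, at 13.2 TPM, above Pde4d, at 12.6 TPM. The coding level of Pde2a is not resolved, and the cause of this was not tested. Pde2a-209, left out here as not coding, had 0 bases of its own, Pde2a-204 had 36 and Pde2a-201 had 38. In the second tables the coding share of Pde2a was 28.3% in replicate 1 and 64.3% in replicate 2.

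**Figure D3:**
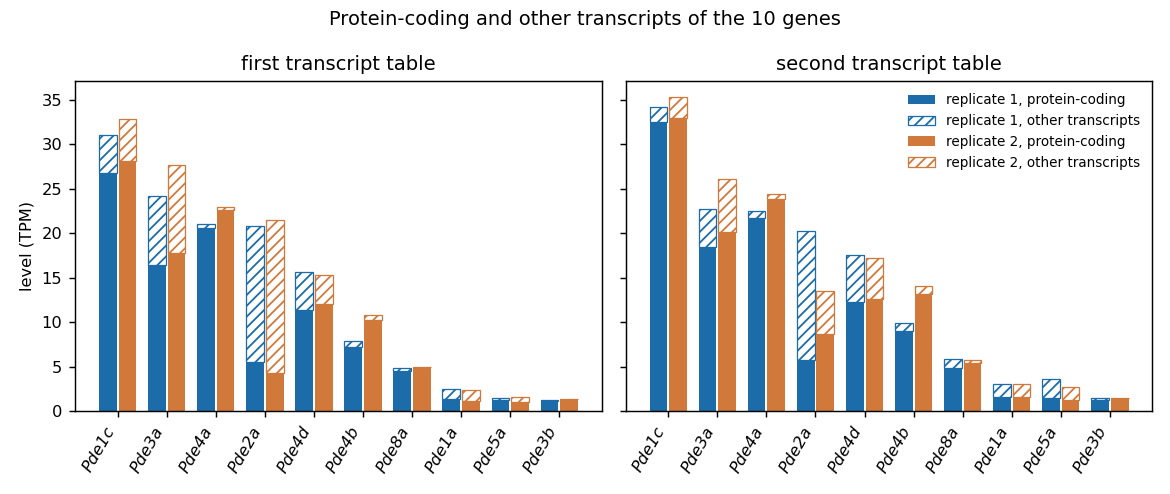
Level in TPM (vertical axis) of the 10 genes in each heart, split into transcripts annotated protein-coding (filled) and all other transcripts (hatched), in the first and second transcript tables. Most of the Pde2a bar is hatched except in replicate 2 of the second table, and the Pde4a, Pde4b, Pde8a and Pde3b bars are nearly all filled.

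Between the hearts, counts were compared after TMM scaling, which sets the libraries to a common size, with exact Clopper-Pearson 95% intervals that cover counting error only. The comparison used the 12454 genes that averaged 50 or more expected counts. Of these, 0.570% were 2-fold or more apart and 2.10% were 1.5-fold or more apart, and 0 of the 10 phosphodiesterase genes were in either set. At 1.25-fold the background was 7.80%, and 1 of the 10 genes, Pde4b, passed it. The interval left out 0 for 19.6% of all genes tested and for 5 of the 10: Pde4b, Pde5a, Pde2a, Pde4a and Pde3a. The median absolute log2 ratio was 0.09 for the 10 genes and 0.08 for all genes tested.

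Pde4b had 800 counts in replicate 1 and 1314 in replicate 2. The log2 ratio of replicate 2 over replicate 1 was 0.48 (interval 0.35 to 0.61), or 1.40-fold, and the second tables gave 0.48. Smooth muscle and pericyte markers were also higher in replicate 2 for 4 of 5 genes, with summed TPM of 180.1 and 218.0. Among these, Acta2, smooth muscle actin, was at 36.3 and 51.2 TPM, while Rgs5, a pericyte marker, was at 102.7 and 109.7 TPM.
Adipocyte markers were higher in replicate 2 for 3 of 3 tested genes, with summed TPM of 3.68 and 8.17. Plin1, which coats lipid droplets, was 2-fold or more apart, at 1.25 and 2.61 TPM, and Cidec, another lipid droplet protein, was at 1.05 and 2.98 TPM. Erythroid and platelet markers were higher in replicate 1 for 4 of 4 genes. Hbb-bs, a haemoglobin chain, was at 7512 and 2215 TPM, Alas2, the first enzyme of haem synthesis in red cells, at 80.8 and 25.5 TPM, and Ppbp, a platelet chemokine, at 16.0 and 3.67 TPM. Cardiomyocyte markers were higher in replicate 2 for 5 of 6 genes, macrophage markers for 3 of 4 and fibroblast markers for 3 of 5. Endothelial markers were higher there for 2 of 5 genes, and the 1 neuronal and Schwann marker tested was lower. Of all genes tested, 6472 of 12454 were higher in replicate 2. The part of these cell types in the Pde4b ratio was not tested.

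Pde5a had 296 and 286 counts, a log2 ratio of -0.28 (interval -0.52 to -0.04), yet its TPM was the higher in replicate 2. The short Pde5a-203 was at 0.23 and 0.53 TPM and the long Pde5a-204 at 0.77 and 0.49 TPM, and their part in this difference was not tested. Pde2a had a log2 ratio of 0.12 (interval 0.03 to 0.20) in the gene tables and -0.58 (interval -0.68 to -0.49) in the second tables. Pde4a and Pde3a were at 0.10 and 0.08, and for Pde4d, Pde1c, Pde1a, Pde3b and Pde8a the interval held 0.

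**Figure D4:**
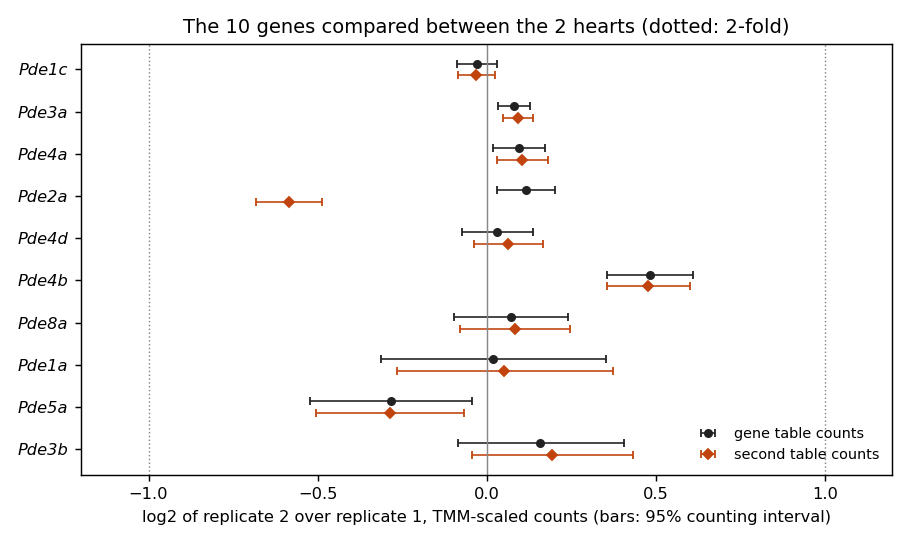
Log2 ratio of replicate 2 over replicate 1 (horizontal axis) of the 10 genes from TMM-scaled counts, with 95% counting intervals as bars. Circles are the gene tables and diamonds the second transcript tables, and dotted lines mark 2-fold. Pde4b lies at 0.48 in both, and Pde2a lies on opposite sides of 0.

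The makers of the nucleotides, their effectors and the enzymes' partners were taken from lists of the pathway. Of the adenylyl cyclases, which make cyclic AMP, 6 of 10 were at 1 TPM or more in both hearts. Of all nuclear protein-coding genes 49.8% stood at that level, the share beside which this and the following list counts are to be read. Adcy6 stood at 88.6 and 84.2 TPM, Adcy5 at 19.6 and 21.5 TPM and Adcy9 at 10.2 and 10.1 TPM. Adcy6 alone was thus above each of the 10 phosphodiesterase genes in level, and Adcy5 overlapped in range with Pde2a and Pde4a.
Of the guanylyl cyclases, which make cyclic GMP, 5 of 11 were detected. The natriuretic peptide receptors Npr2 and Npr1 were at 15.5 ± 1.53 and 6.30 ± 0.0778 TPM, and Gucy1a1, a chain of the nitric oxide receptor, at 6.60 ± 0.262 TPM (SD, n = 2). Each of these exceeded Pde5a in both hearts.

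Of the protein kinase A chains and inhibitors 7 of 9 were detected, led in the gene tables by the regulatory chain Prkar1a at 144.9 ± 0.0283 TPM, the catalytic chain Prkaca at 121.7 ± 7.40 TPM and the inhibitor Pkia at 90.4 ± 1.58 TPM (SD, n = 2). In the second tables another inhibitor gene, Pkig, was highest at 163.3 TPM, against 88.1 TPM in the gene tables. Of the other effectors 6 of 7 were detected. The cyclic AMP-binding membrane proteins Popdc2 and Popdc3 were at 174.8 ± 10.8 and 13.6 ± 0.0424 TPM, and the exchange factor Rapgef4 at 13.5 ± 1.98 TPM.
Of the anchors and partners 15 of 17 were detected. Pde4dip, which encodes myomegalin, was at 693.3 and 727.0 TPM, and Rack1, a scaffold that binds a Pde4d form, at 138.5 and 167.4 TPM. Both exporters were detected, Abcc5 at 11.6 and 8.66 TPM and Abcc4 at 3.34 and 3.47 TPM. In these lists 0 genes were 2-fold or more apart between the hearts, against 0.570% of all genes tested.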

How the data were processed

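The samples were 2 heart libraries of 1 group. The README text deposited with each names mm10 as the assembly and GENCODE M21 as the annotation, and says that the gene tables and first transcript tables derive from transcriptome alignments and the second from reads. Quantifiers, aligner and strand setting: not given in the sources used here. Expected counts (estimated reads) and TPM were used as deposited by the authors. The deposited FPKM was an alternative, and the authors' TPM intervals (unit signal) are not printed.

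Second-table TPM were summed per gene. Counts were rounded and scaled by TMM (edgeR 4.0.16), prior count 0.5, with DESeq2 1.42.0 size factors as an alternative. Sequences were aligned with Biopython 1.88. In simulated data on 12454 genes, 100 of 100 genes changed 4-fold passed 2-fold, and 0 unchanged genes did. These simulated counts held counting error only and no variation between hearts, so they do not show how often such variation passes 2-fold. Spread over 2 hearts may be technical. The 10 genes and all lists were chosen with earlier results of these data known. Named were these genes, other phosphodiesterase genes at 1 TPM or more in both hearts, transcripts with 10% or more of TPM, the 3 highest of each pathway list (1 is not reported here), 2-fold genes, and up to 2 markers of each cell type a result touches. Sftpc, Gm45837, Pkig, Pde4d-220 and Pde4a-205 were chosen after their values were seen.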

Additional observations from a re-analysis of the deposited data

How the results depend on the processing

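All 10 genes stayed at 1 TPM or more in the second tables, at a threshold of 0.5 TPM and with either heart alone. At 5 TPM the counts were 6 of these genes and 3 of the other phosphodiesterase genes. The share of all genes was taken at 1 TPM only, so the counts at 5 TPM have no background beside them. Of the 10 genes, 0 were 2-fold or more apart under TMM, DESeq2 size factors, total counts, spike-in counts and second-table counts. At 1.5-fold under TMM, where the background was 2.10%, the count was also 0. With spike-in scaling Pde4b lay past 1.5-fold at a log2 ratio of 0.65, but the background share was not taken under that scaling. Spike-in scaling moved the median log2 ratio of all genes by 0.17, and ratios between the hearts are relative to that shift. The summed TPM of the 10 genes was 349.0 when rescaled to nuclear protein-coding genes.

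The cyclic AMP-specific share was 54.2% in the second tables, 38.5% in expected counts and 57.9% over coding transcripts, an alternative added after seeing the data. The dual share was 42.7%, 60.1% and 40.2%, and the cyclic GMP-specific share 3.09% and 1.48% in the first pair of these. The log2 ratio of Pde3a to Pde3b was 4.01 in the second tables and 4.72 in expected counts, and that of Pde1c to Pde1a was 3.49 and 4.93. In expected counts Pde4d to Pde4a was -0.89 and Pde8a to Pde8b 2.77. In the second tables Pde4b to Pde4a was -0.99. Expected counts carry no correction for length. None of these ratios changed direction.

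Among the 5 genes whose interval left out 0, the ratio between the hearts changed sign in 2 cases: Pde2a to -0.58 with second-table counts, and Pde5a to 0.12 with gene-table TPM. Among the others, Pde1a went from 0.02 to -0.08 and Pde4d from 0.03 to -0.03 with gene-table TPM, and Pde1c from -0.03 to 0.02 with total counts, 0.14 with spike-in counts and 0.08 with TPM. Pde2a shares most of its words with Gm45837, and the cause of the change was not tested. Without replicate 2 the most abundant transcript was the same in both kinds of table for 9 genes, and without replicate 1 for 8. No paired analysis was possible because there is 1 group. With 2 hearts, small differences in level are not resolved, and Pde1a, Pde3b and Pde5a rest on 141 to 323 counts a heart.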
